A study of Homo sapiens with 12 samples.

Results

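The 10 genes described here are the chemokines CXCL1, CXCL2, CXCL3 and CXCL8, the cytokine IL6, the feedback inhibitors NFKBIA and TNFAIP3, the NF-kB subunits NFKB2 and RELB, and BIRC3. They were taken by gene name from the annotation in the deposited transcript files, and are 10 of its 60609 genes. Each gene's level is the sum of its transcripts in TPM, a unit that divides by transcript length and scales every library to the same total. Genes were tested where 2 or more libraries reached a TPM of 1, and all 10 were among these 17185. CXCL1 and CXCL8 reached that level in 5 of 12 libraries, CXCL3 in 6, IL6 in 7, CXCL2 in 11 and the other genes in 12.

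The libraries came from NS-SV-AC, an immortalized human salivary gland acinar cell line, which the series used to study double-stranded RNA of mitochondria in Sjögren's syndrome. There were 6 groups of 2: cells given DMSO (the solvent control), 2-CM (the adenosine analogue 2'-C-methyladenosine) or RES (the plant polyphenol resveratrol), each transfected with poly I:C or with the control that the labels call depc. Poly I:C is a synthetic double-stranded RNA and stayed on the cells for 14 h. The compounds, at 20 micromolar as the dose is read here, were added 24 h ahead of the transfection and a further time alongside it, and no other treatment is named.

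NF-kB is a family of transcription factors built from pairs of the subunits RELA, REL, RELB, NFKB1 and NFKB2. In resting cells IκB proteins such as the NFKBIA product hold the dimers in the cytoplasm; sensing of double-stranded RNA or binding of an inflammatory cytokine leads to IκB breakdown, and the freed dimers enter the nucleus and bind DNA. Their target genes include neutrophil-attracting chemokines and IL6, and also the genes of their own inhibitors, so that the response limits itself; in salivary epithelium this arm is studied for its part in gland inflammation.

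Promoter sequences show what these genes share apart from their names. RefSeq windows (GRCh38.p14) running from 250 bases before to 50 after a start site were matched by symbol for 9 of the 10 genes, and RELB was not matched. The pattern GGANNTTCC, 1 form of the NF-kB core motif, was searched on both strands. It was in a window of 8 of the 9, all except BIRC3, and in 4.56% of all 35116 windows of 300 bases. The former is a count of genes and the latter a share of windows. The genes were picked by name from the NF-kB pathway, so these values are a description only. Other forms of the motif were not searched for, so a window without this pattern may still hold an NF-kB site. The AP-1 motif TGANTCA was in the window of CXCL8 alone among the 9, and in 7.71% of all windows. The 150 bases before the start site are printed below 5′ to 3′ for the 8 genes with a match, to show the sequence and position of the core in each; capitals mark the NF-kB core and, in CXCL8, also the AP-1 match TGACTCA.
CXCL1 (chr4:73869243-73869392, + strand): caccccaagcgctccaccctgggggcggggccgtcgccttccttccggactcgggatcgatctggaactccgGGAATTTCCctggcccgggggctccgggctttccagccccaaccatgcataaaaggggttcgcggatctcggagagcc
CXCL2 (chr4:74099196-74099345, - strand): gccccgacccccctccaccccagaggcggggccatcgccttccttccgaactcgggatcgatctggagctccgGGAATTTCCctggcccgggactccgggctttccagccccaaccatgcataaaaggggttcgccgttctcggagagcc
CXCL3 (chr4:74038690-74038839, - strand): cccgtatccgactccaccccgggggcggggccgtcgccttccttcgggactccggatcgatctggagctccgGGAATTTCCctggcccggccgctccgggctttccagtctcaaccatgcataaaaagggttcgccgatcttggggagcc
CXCL8 (chr4:73740419-73740568, + strand): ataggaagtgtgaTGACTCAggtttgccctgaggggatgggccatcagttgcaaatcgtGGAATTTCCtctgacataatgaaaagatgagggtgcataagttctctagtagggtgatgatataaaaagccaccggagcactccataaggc
IL6 (chr7:22727050-22727199, + strand): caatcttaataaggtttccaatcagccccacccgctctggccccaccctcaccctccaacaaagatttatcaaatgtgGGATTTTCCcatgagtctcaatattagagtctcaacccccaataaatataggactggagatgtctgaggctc
NFKBIA (chr14:35404750-35404899, - strand): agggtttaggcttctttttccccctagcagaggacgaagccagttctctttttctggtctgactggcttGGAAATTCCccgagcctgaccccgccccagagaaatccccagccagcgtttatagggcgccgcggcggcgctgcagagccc
TNFAIP3 (chr6:137867109-137867258, + strand): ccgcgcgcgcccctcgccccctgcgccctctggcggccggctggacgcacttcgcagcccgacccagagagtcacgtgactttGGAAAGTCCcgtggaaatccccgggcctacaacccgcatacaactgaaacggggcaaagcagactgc
NFKB2 (chr10:102395555-102395704, + strand): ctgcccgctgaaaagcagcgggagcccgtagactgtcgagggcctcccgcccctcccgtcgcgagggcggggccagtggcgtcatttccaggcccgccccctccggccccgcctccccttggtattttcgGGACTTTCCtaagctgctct
CXCL1, CXCL2 and CXCL3 carried the same GGAATTTCC, which began 78, 77 and 78 bases before the start site, and CXCL8 carried it 91 bases before. In IL6 the core was GGATTTTCC at 72 bases, in TNFAIP3 GGAAAGTCC at 67 and in NFKBIA GGAAATTCC at 81, with GGACTTTCC at 242 bases, outside the printed stretch. The TNFAIP3 letters match the motif on the opposite strand. NFKB2 had 3 windows, and the core was in 1 of them, as GGACTTTCC at 20 bases. A match is a description of letters in a window, and binding was not measured.

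In the deposited GRCh38 coordinates, the chemokine genes lie on chromosome 4 within 358656 bases: CXCL8 (ENSG00000169429.11) at chr4:73740541-73743716 and CXCL1 (ENSG00000163739.5) at chr4:73869393-73871308 on the + strand, and CXCL3 (ENSG00000163734.4) at chr4:74036589-74038807 and CXCL2 (ENSG00000081041.9) at chr4:74097040-74099196 on the - strand. CXCL1, CXCL2 and CXCL3 are close paralogs, so the division of reads among them is uncertain. IL6 (ENSG00000136244.12) lies at chr7:22725884-22732002 on the + strand, NFKBIA (ENSG00000100906.10) at chr14:35401511-35404749 on the - strand and TNFAIP3 (ENSG00000118503.15) at chr6:137867214-137883312 on the + strand. NFKB2 (ENSG00000077150.20) lies at chr10:102394110-102402524, RELB (ENSG00000104856.14) at chr19:45001449-45038198 and BIRC3 (ENSG00000023445.14) at chr11:102317450-102339403, all on the + strand. All 10 are annotated as protein coding. Opposite IL6 lie the antisense gene AC073072.1, at most 0.675 TPM in any library, and a STEAP1B transcript of at most 0.322 TPM. No header carried a strand option, so their reads may count toward IL6. The same holds for TNFAIP3, opposite which lies WAKMAR2, under 1 TPM in every library.

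By the ratio of coverage to FPKM, the base total that scales each library was 3.72 to 6.002 gigabases. Poly I:C labels matched the RNA: OAS1, an interferon-induced double-stranded RNA sensor, was at 1.87 to 4.30 TPM in the depc libraries and 109 to 255 TPM with poly I:C, and IFNB1, listed at 0 without poly I:C, was at 0.933 to 4.33 TPM with it. Of the 6 epithelial markers, the keratins KRT8 and KRT18 were at 629.8 and 466.4 TPM or more in every library, but EPCAM, CDH1 and KRT19 were at most 1.23, 0.596 and 0.243 TPM, and the acinar markers AQP5, MUC7, STATH and PRB1 and the keratins KRT5 and KRT14 were listed at 0 in all 12. The other acinar markers, BHLHA15 and AMY1A, were at 0.507 to 2.69 and at most 0.0463 TPM, and the other myoepithelial markers, ACTA2 and MYH11, at 13.5 to 28.6 and at most 0.376 TPM. Of the 7 immune markers, PTPRC, CD3E and MS4A1 were at 0 in all 12, CD14 was at 7.05 to 15.8 TPM, CD68 at 1.68 to 8.80, ITGAM at 0.500 to 1.35 and CD79A at 0.247 to 1.08, and together they summed to 10.1 to 23.8 TPM. The 6 epithelial markers summed to 1682 to 3529.6 TPM in the depc libraries and 1098 to 1733 TPM with poly I:C, and the 4 fibroblast markers to 74.6 to 144 TPM with depc and 39.8 to 119.6 TPM with poly I:C. With DMSO the fibroblast sum was 113.2 to 122.6 TPM with depc and 39.8 to 54.7 TPM with poly I:C. Over the depc and the poly I:C libraries COL1A1 was at 48.1 to 100.3 and 15.9 to 41.6 TPM, COL3A1 at 18.6 to 51.8 and 14.2 to 60.1, DCN at 0.584 to 6.19 and 2.9996 to 18.0, and PDGFRA at most 0.0813 TPM. The part of these shifts in the results was not tested. Replicates differed in how level related to GC content: the Spearman correlation across genes between a gene's GC content and its deviation from the mean of all libraries was -0.745 and -0.687 in the 2-CM poly I:C libraries, 0.686 and 0.784 in 2-CM depc, and of opposite sign between the replicates of DMSO depc (-0.094 and 0.541), DMSO poly I:C (-0.690 and 0.422), RES depc (-0.352 and 0.745) and RES poly I:C (0.311 and -0.697). Values after each library was centred within 20 bins of GC content are therefore given beside the results. Centring shifts all genes of a bin alike, also genes near 0 TPM that cannot fall by as much. Centred changes of such low genes are therefore uncertain, in sign too. The labels do not say whether replicates were separate cultures, so p-values measure the spread between these libraries, which may be technical.

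In depc cells given DMSO, NFKBIA, NFKB2, RELB and BIRC3 were the well expressed members, and the cytokine and chemokine RNAs were near or under 1 TPM. Over all 12 libraries NFKBIA ranged from 37.8 to 164 TPM, NFKB2 from 25.2 to 116, RELB from 12.4 to 65.6 and BIRC3 from 3.62 to 57.1. TNFAIP3 ranged from 2.32 to 14.1 TPM, CXCL2 from 0.724 to 21.9 and IL6 from 0.288 to 18.3. CXCL8 reached 5.91 TPM, CXCL3 2.67 and CXCL1 1.85. For CXCL2, CXCL3, CXCL8, IL6, NFKBIA, TNFAIP3 and BIRC3 the group with the highest mean was 2-CM with poly I:C. CXCL1 had its highest mean in RES with poly I:C, and NFKB2 and RELB had theirs in RES with depc.

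**Figure D1:**
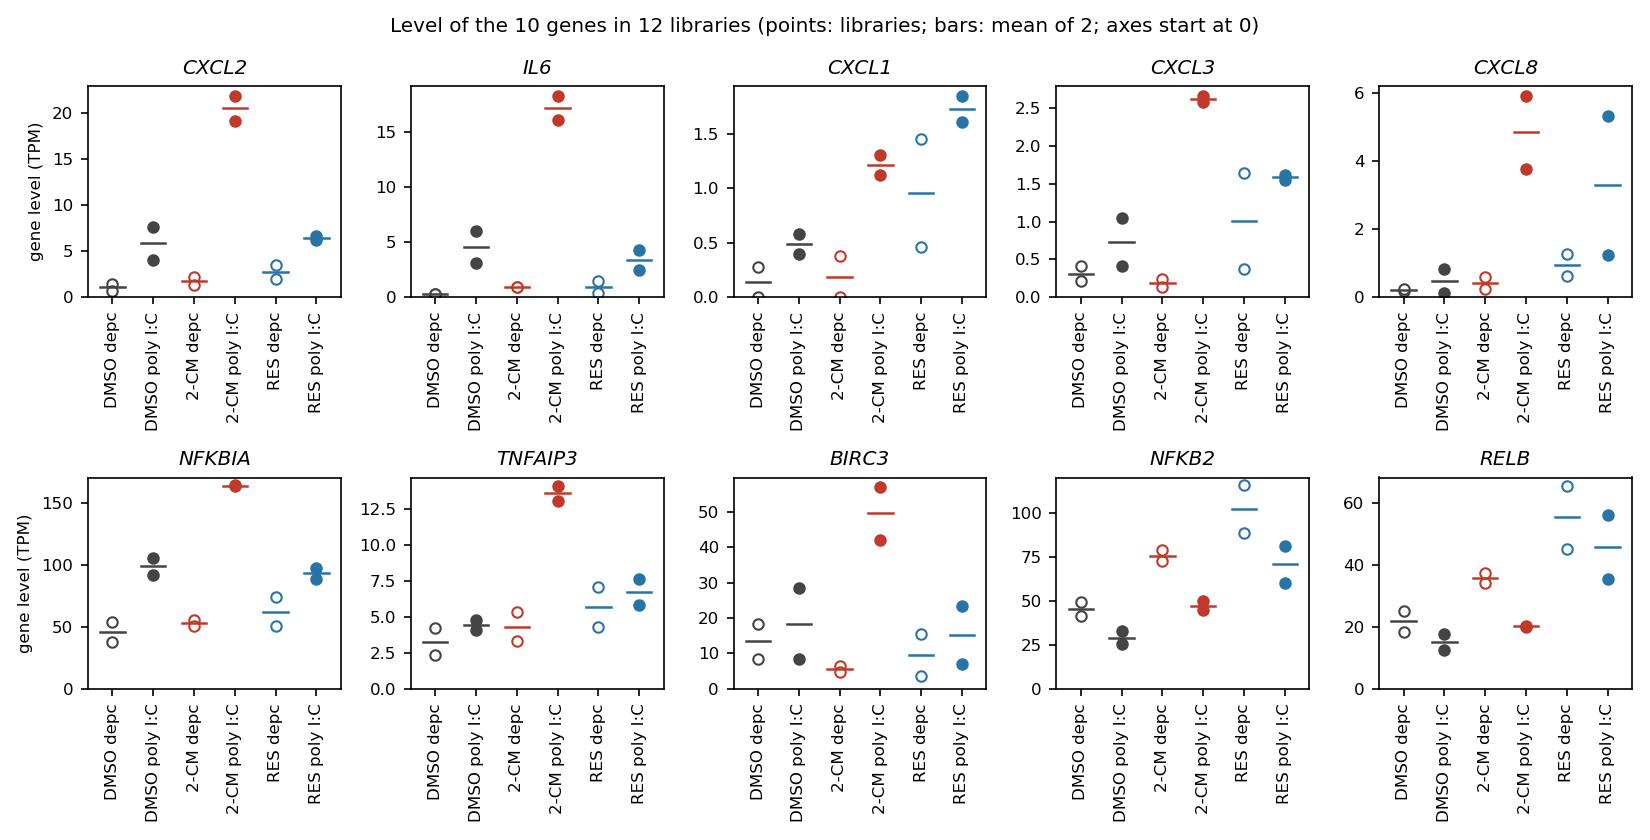
Level of each of the 10 genes in TPM (vertical axis, starting at 0, scale set per gene) in the 6 groups; points are libraries, open for depc and filled for poly I:C, and bars are the mean of 2. IL6, CXCL2 and NFKBIA lie higher with poly I:C than with depc under each compound, NFKB2 lies lower, and BIRC3 replicates overlap between depc and poly I:C under DMSO and RES.

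Poly I:C raised IL6, CXCL2 and NFKBIA in cells given DMSO, which shows its effect without a compound. These were 3 of the 10 genes called by limma at an adjusted p under 0.05, all higher, where 4.08% of all tested genes were called, 0.797% higher and 3.28% lower. With 2-CM, 9 of 10 were called, 8 higher and NFKB2 lower, where 49.3% of all genes were called, 37.5% higher and 11.8% lower. Of the 8, CXCL1, CXCL3, CXCL8 and IL6 reached 1 TPM with depc only in RES replicate 1. They passed the filter through poly I:C libraries, so their calls as higher are not independent of it. The same holds for the call of IL6 with DMSO. It also holds for these genes in the averaged calls and in the counts of separate libraries that follow. With RES none of the 10 was called, 4 had an unadjusted p under 0.05 as did 14% of all genes, limma voom on reads estimated from coverage also called none, and 0.442% of all genes were called. Averaged over the compounds, 9 of 10 were called, 7 higher and NFKB2 and RELB lower, where 31.2% of all genes were called, 13.4% higher and 17.8% lower. Both poly I:C libraries lay above both depc libraries for 5 of the 10 genes with DMSO, 8 with 2-CM and 4 with RES, where 11.5%, 62.6% and 6.05% of all genes did. They lay below for 2, 2 and 1, where 33.4%, 23.9% and 24.1% of all genes did. The members' median log2 change was 0.38 with DMSO, 1.61 with 2-CM and 0.56 with RES, where the median of all tested genes was -0.14, 0.61 and -0.03. These log2 changes are on the scale of log2(TPM + 1), which understates the change of low genes. The balance of directions over all genes changed with the scaling. With 2-CM, 6440 genes were called higher and 2035 lower; with median-of-ratios scaling, which sets each library by its typical gene, these were 3482 and 4046, and after GC centring 1799 and 3457. With DMSO the 137 higher and 564 lower became 98 and 29 with median-of-ratios scaling and 1509 and 1205 after GC centring, and with RES the 34 and 42 became 37 and 2, and 263 and 246. The median of all genes with 2-CM went from 0.61 to 0.03 with median-of-ratios scaling. Of the members with 2-CM, 6 were then called higher and 2 lower: CXCL1 (adjusted p 0.0841, limma) and TNFAIP3 (adjusted p 0.0567) lost the call, RELB gained it at -1.61, NFKB2 was at -1.505, and NFKBIA, at 0.77, kept its call. With DMSO IL6 and CXCL2 kept their calls and NFKBIA did not (adjusted p 0.0503, limma), and in the average BIRC3 gained a call and RELB lost it. In bulk RNA, more cells making a transcript and more transcript per cell cannot be told apart.

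The DMSO and 2-CM counts changed when 1 library was left out, for a cause that was not tested. Without any 1 of the 4 DMSO or 4 2-CM libraries no gene was called under DMSO, and without either RES poly I:C library 1 was. Without any 1 of the 4 2-CM libraries, 0 or 1 gene was called under 2-CM. The averaged count ran from 5, without DMSO depc replicate 2 or 2-CM poly I:C replicate 1, to 10, and IL6, CXCL2, CXCL3, NFKBIA and NFKB2 passed it without each library in turn. An average over DMSO and RES alone, a choice made after seeing the data, called none of the 10, with adjusted p of 0.0595 for IL6, 0.0741 for CXCL2 and 0.0851 for NFKBIA; with GC centring it called these 3. It called 0.768% of all genes as measured and 15.3% with GC centring.

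IL6, the cytokine that signals through gp130 to drive acute-phase and B-cell responses, had the largest poly I:C change of the 10 under every compound as measured; after GC centring CXCL2 was above it with 2-CM. With DMSO it was at 0.288 and 0.328 TPM with depc and at 6.05 and 3.10 with poly I:C. With 2-CM it was at 0.970 and 0.889 TPM with depc and 16.1 and 18.3 with poly I:C, and with RES at 1.44 and 0.376 against 2.50 and 4.27. Under each compound both poly I:C libraries lay above both depc libraries, and the 2-CM poly I:C libraries lay above every other library. The log2 change was 2.04 ± 0.36 (SE; adjusted p 0.0264, limma) with DMSO and 3.23 ± 0.36 (adjusted p 0.00420) with 2-CM. With RES it was 1.23 ± 0.36 and did not pass (adjusted p 0.181). GC centring left 2.07, 2.13 and 1.11, all called by limma (adjusted p 1.18e-04, 1.05e-04 and 0.00885). With depc IL6 was under 1 TPM except in RES replicate 1, so the centred sizes are uncertain.

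CXCL2, a CXCR2 ligand that recruits neutrophils, followed IL6 closely. It was at 1.44 and 0.724 TPM with DMSO and depc, and at 7.65 and 4.06 TPM with DMSO and poly I:C. With 2-CM it was at 2.20 and 1.28 TPM with depc and 21.9 and 19.1 with poly I:C, and with RES at 3.55 and 1.97 against 6.15 and 6.60. As for IL6, no poly I:C library overlapped the depc libraries of its compound, and the 2-CM poly I:C libraries were the highest. The log2 change was 1.69 ± 0.35 (SE; adjusted p 0.0385, limma) with DMSO, 2.99 ± 0.35 (adjusted p 0.00498) with 2-CM and 1.00 ± 0.35 (adjusted p 0.251) with RES. After GC centring the changes were 1.73, 2.27 and 0.97, and limma called all 3.

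The other chemokines were low throughout, and under DMSO or RES none of their changes passed the test. CXCL8 (interleukin 8, a ligand of CXCR1 and CXCR2) was at 0.192 and 0.237 TPM with DMSO and depc and at 0.818 and 0.128 with poly I:C. With 2-CM it was at 0.594 and 0.246 against 5.91 and 3.77, and with RES at 1.28 and 0.637 against 1.25 and 5.32. Replicates overlapped between depc and poly I:C under DMSO and RES, where 1 library of the poly I:C pair was far above the other, and were separate under 2-CM. CXCL8 rose by 2.03 ± 0.46 on the log2 scale with 2-CM (SE; adjusted p 0.0274, limma). Its exons have a GC content of 32.1%, below nearly all tested genes, and after GC centring the 2-CM change was -0.11 (adjusted p 0.827, limma). With depc it was under 1 TPM there, so the centred sign is uncertain.

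CXCL3 was at 0.410 and 0.216 TPM with DMSO and depc and at 1.04 and 0.415 with poly I:C. With 2-CM it was at 0.236 and 0.136 against 2.67 and 2.59, and with RES at 1.65 and 0.380 against 1.62 and 1.55. The 2-CM poly I:C libraries were the highest of the 12, and under RES a depc library was as high as those with poly I:C. The 2-CM change was 1.61 ± 0.30 (SE; adjusted p 0.0241, limma), and 0.71 (adjusted p 0.0256) after GC centring. CXCL1 was listed at 0 in 1 DMSO depc and 1 2-CM depc library, at 0.281 and 0.380 TPM in the other of each pair, and at 1.45 and 0.459 in RES depc. With poly I:C it was at 0.399 and 0.583 TPM with DMSO, 1.12 and 1.31 with 2-CM and 1.61 and 1.85 with RES. Every poly I:C library lay above the depc libraries of its compound. The 2-CM change of CXCL1 was 0.91 ± 0.27 (SE; adjusted p 0.0318, limma), and it turned to -0.21 (adjusted p 0.639) after GC centring. Both CXCL3 and CXCL1 were under 1 TPM with 2-CM and depc. Their centred values are therefore uncertain, for CXCL1 in sign too.

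NFKBIA encodes IκBα, the inhibitor that rebinds NF-kB dimers and is the classical readout of their activity. It was at 53.7 and 37.8 TPM with DMSO and depc and at 106 and 92.1 with poly I:C. With 2-CM it was at 55.2 and 50.8 against 164 and 164, and with RES at 74.03 and 50.5 against 88.9 and 97.6. The 6 poly I:C libraries lay above all 6 depc libraries. The log2 change was 1.11 ± 0.23 (SE; adjusted p 0.0385, limma) with DMSO, 1.61 ± 0.23 (adjusted p 0.0130) with 2-CM and 0.60 ± 0.23 (adjusted p 0.290) with RES. NFKBIA is richer in GC than most genes, at 56.1% against a median of 48.4%, and its changes were larger after GC centring, at 1.53, 1.78 and 0.95; limma called the DMSO and 2-CM values.

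TNFAIP3 encodes A20, a ubiquitin-editing enzyme that shuts off signalling to the IκB kinase. It was at 4.23 and 2.32 TPM with DMSO and depc and at 4.79 and 4.09 with poly I:C. With 2-CM it was at 3.32 and 5.30 against 13.1 and 14.1, and with RES at 7.08 and 4.30 against 5.78 and 7.61. Only under 2-CM were the libraries separate. There the change was 1.48 ± 0.33 (SE; adjusted p 0.0273, limma), and 0.76 (adjusted p 0.0289) after GC centring; with DMSO it was 0.38 (adjusted p 0.624) and with RES 0.22 (adjusted p 0.800).

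BIRC3 encodes cIAP2, a ubiquitin ligase that protects cells from TNF-induced death and restrains the non-canonical NF-kB kinase. It was at 18.4 and 8.35 TPM with DMSO and depc and at 28.4 and 8.42 with poly I:C. With 2-CM it was at 6.38 and 4.73 against 57.1 and 42.2, and with RES at 15.4 and 3.62 against 6.99 and 23.4. Under DMSO and RES the replicates of a group differed more than the groups did, and under 2-CM the groups were far apart. The 2-CM change was 2.95 ± 0.78 (SE; adjusted p 0.0281, limma). BIRC3 is poor in GC, at 36.7%, and after GC centring that change was 0.81 ± 0.19 (adjusted p 0.0172, limma). The average over compounds was 1.31 ± 0.45 as measured (adjusted p 0.0535, limma) and 0.50 after GC centring (adjusted p 0.00850). Over DMSO and RES alone the GC-centred average was 0.34 (adjusted p 0.179, limma).

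NFKB2 and RELB, which together form the dimer of the non-canonical pathway once p100 is processed to p52, moved in the other direction. NFKB2 was at 41.3 and 49.6 TPM with DMSO and depc and at 25.2 and 32.8 with poly I:C. With 2-CM it was at 72.95 and 78.9 against 44.9 and 49.9, and with RES at 88.8 and 116 against 81.4 and 60.3. Both poly I:C libraries lay below both depc libraries under each compound. NFKB2 fell by 0.67 on the log2 scale with 2-CM (SE 0.23; adjusted p 0.0399, limma); the values with DMSO and RES were -0.64 (adjusted p 0.159) and -0.53 (adjusted p 0.346), and the average, -0.61 ± 0.13, passed (adjusted p 0.0115). RELB was at 18.4 and 25.1 TPM with DMSO and depc and at 12.4 and 17.5 with poly I:C. With 2-CM it was at 34.2 and 37.4 against 20.1 and 20.3, and with RES at 45.2 and 65.6 against 56.2 and 35.5. RELB libraries were separate under DMSO and 2-CM and overlapped under RES. Its averaged change was -0.53 ± 0.17 (SE; adjusted p 0.0446, limma), and the 2-CM change -0.79 ± 0.29 did not pass (adjusted p 0.0506).

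GC-rich genes in general had lower values with poly I:C. NFKB2 and RELB exons have a GC content of 61.7% and 63.4%, higher than 91.3% and 94.7% of tested genes, and the poly I:C change was negatively correlated with GC content across the 17185 genes (Spearman -0.36 with DMSO, -0.80 with 2-CM and -0.62 with RES, as a description). After GC centring the averaged change was -0.03 (adjusted p 0.783, limma) for NFKB2 and 0.06 (adjusted p 0.639) for RELB, and neither gene was called under any compound. GC centring left 3 members called with DMSO, 6 with 2-CM, 2 with RES and 6 in the average, all higher, where 15.8%, 30.6%, 2.96% and 36.8% of all genes were called. Whether the GC pattern arose in the libraries or in the cells was not tested, and within 2-CM it cannot be told apart from the poly I:C treatment, since both libraries of a group share it.

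**Figure D2:**
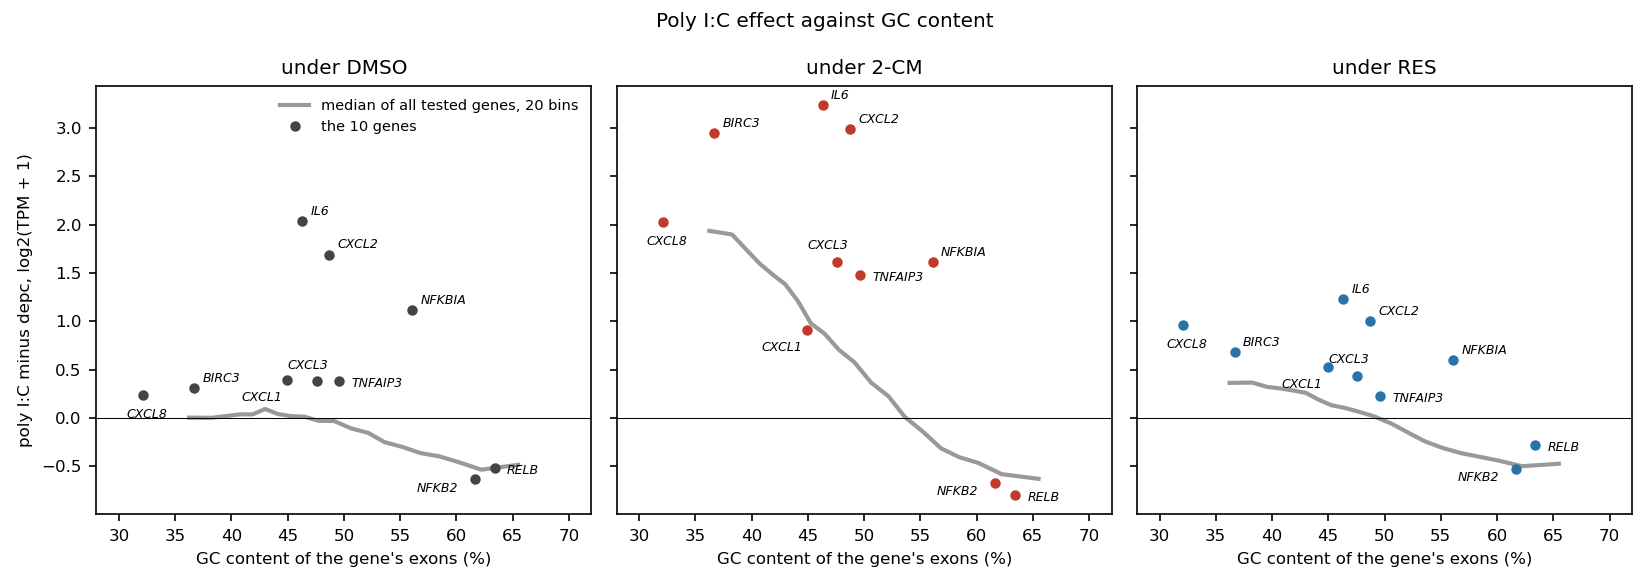
Poly I:C change of the 10 genes, as poly I:C minus depc in log2(TPM + 1), against the GC content of their exons in percent, with DMSO, 2-CM and RES; the grey line joins the medians of all tested genes in 20 GC bins. IL6, CXCL2 and NFKBIA lie above the line in all 3 panels, NFKB2 and RELB lie near it, and under 2-CM CXCL8 and CXCL1 do too.

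**Figure D3:**
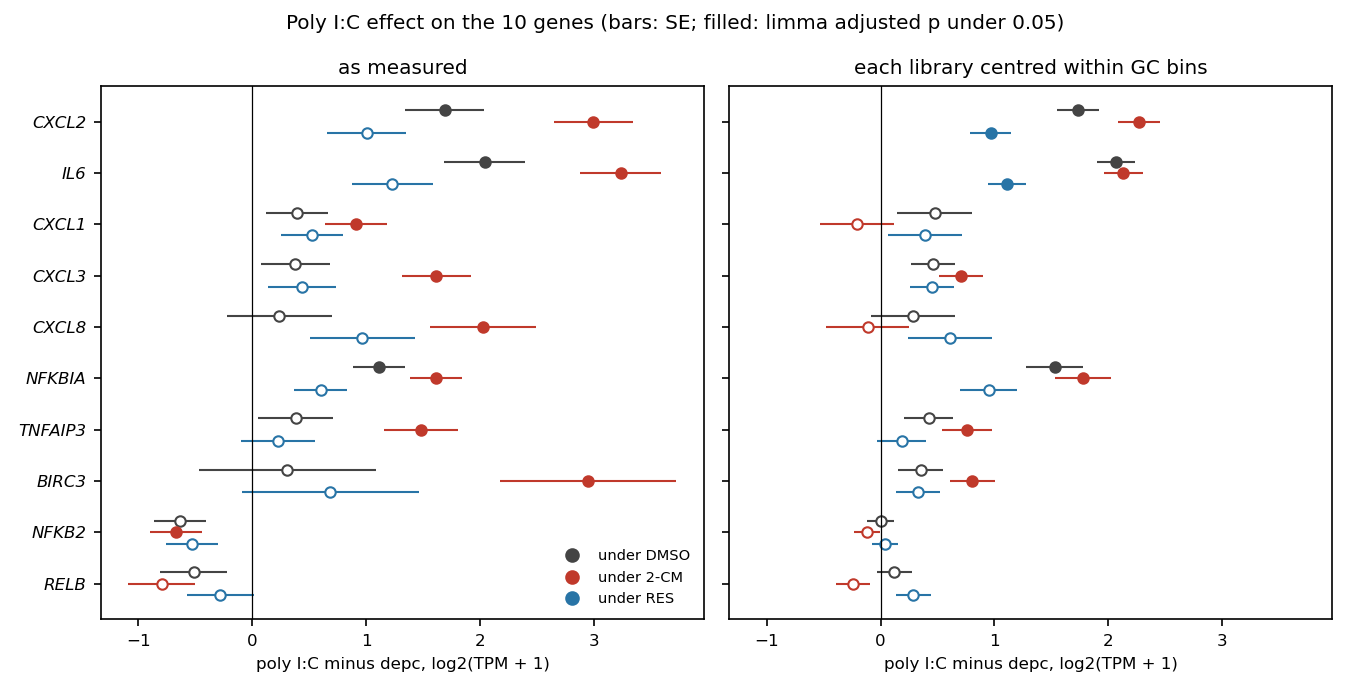
Poly I:C minus depc in log2(TPM + 1) for each gene under DMSO, 2-CM and RES, as measured (left) and with each library centred within GC bins (right); points are differences of group means of 2 libraries, bars are SE, and filled points have a limma adjusted p under 0.05. After centring, IL6 and CXCL2 are filled under all 3 compounds and NFKB2 and RELB sit near 0.

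The design also asks whether a compound changed the response. The poly I:C change with 2-CM minus that with DMSO was above 0 for 8 of the 10 genes, with an unadjusted p under 0.05 for 6, where 29.7% of all genes had one, but limma called none (0.0116% of all genes were called). For IL6 the difference was 1.19 (95% interval 0.046 to 2.34; adjusted p 0.163, limma), for CXCL2 1.30 (0.18 to 2.42; adjusted p 0.161) and for NFKBIA 0.50 (-0.24 to 1.24; adjusted p 0.289). The largest as measured was BIRC3, at 2.64 (0.14 to 5.14; adjusted p 0.162). The same difference had a median of 1.15 over the members and 0.68 over all tested genes, and after GC centring it was 0.06 for IL6, 0.54 for CXCL2, 0.25 for NFKBIA and 0.46 for BIRC3. The sign of several differences depended on the scaling. For NFKBIA the difference was -0.51 with median-of-ratios and -0.25 with upper-quartile scaling, and after GC centring CXCL1 went from 0.52 to -0.68 and CXCL8 from 1.79 to -0.40. Centred differences of IL6, CXCL1, CXCL3 and CXCL8, which were under 1 TPM in most depc libraries, are uncertain. After GC centring 6 of the 10 were above 0, with a median of 0.16, and none had an unadjusted p under 0.05, where 26.1% of all genes did.

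With RES in place of 2-CM the difference from DMSO was above 0 for 6 of the 10 genes, with a median of 0.08 where that of all tested genes was 0.11, and limma called none. It was -0.81 for IL6 (95% interval -1.96 to 0.34), -0.69 for CXCL2 (-1.80 to 0.43) and -0.51 for NFKBIA (-1.25 to 0.22), the 3 genes called with DMSO, whose libraries are the ones subtracted. It was 0.73 for CXCL8 (-0.76 to 2.22) and 0.38 for BIRC3 (-2.12 to 2.87). Limma gave adjusted p of 1.00 for each of these 5, no unadjusted p under 0.05 for any of the 10 (1.7% of all genes had one), and called 0% of all genes. After GC centring the differences for IL6, CXCL2 and NFKBIA were -0.96, -0.77 and -0.58, again not called (adjusted p 0.540, 0.608 and 0.877), and 3 of the 10 were above 0. An unadjusted p under 0.05 was then reached by 2 members and 6.59% of all genes, and with median-of-ratios scaling by 2 members and 1.69% of all genes. The intervals for IL6, CXCL2 and NFKBIA hold both no difference and a reduction of more than 1 log2 unit. All these comparisons share the DMSO libraries, so their values are given side by side only.

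Compared directly under depc, no member was called between 2-CM and DMSO (limma; 2 genes with an unadjusted p under 0.05, against 4.84% of all genes, and 0.0349% of all genes called), and 4 of the 10 lay higher in both 2-CM libraries than in both DMSO libraries and 1 lower, where 22.8% and 33.3% of all genes did. NFKB2 was 0.73 higher (95% interval 0.22 to 1.25; adjusted p 0.721, limma) and RELB 0.71 higher (0.040 to 1.38; adjusted p 0.721). IL6 was 0.56 higher (-0.25 to 1.37). With poly I:C all 10 lay higher in both 2-CM libraries, but so did 70.4% of all tested genes, with 6% lower, and with median-of-ratios scaling 7 of the 10 differences were above 0. Again limma called none (0.105% of all genes), and 7 of the 10 had an unadjusted p under 0.05, where 34.2% of all genes did. IL6 was 1.75 ± 0.36 higher (SE; adjusted p 0.0905, limma), CXCL8 2.00 ± 0.46, CXCL2 1.70 ± 0.35 and TNFAIP3 1.42 ± 0.33 (all with the same adjusted p), where the median of all genes was 0.59. After GC centring CXCL8 was 0.57 higher (adjusted p 0.328, limma), and limma called CXCL2, at 1.06 (adjusted p 0.0202), and IL6, at 0.92 (adjusted p 0.0245), among 5.98% of all genes.

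For RES against DMSO, the values of NFKB2 and RELB were separate in both transfections, but no difference passed the test. In the values given above, both RES libraries exceeded both DMSO libraries for NFKB2 and for RELB, with depc and with poly I:C. NFKB2 was 1.15 ± 0.23 higher with depc (SE; 95% interval 0.63 to 1.66; adjusted p 0.0574, limma) and 1.25 ± 0.23 higher with poly I:C (0.74 to 1.77; adjusted p 0.0776). RELB was 1.30 ± 0.29 higher with depc (0.63 to 1.97; adjusted p 0.0784, limma) and 1.53 ± 0.29 higher with poly I:C (0.87 to 2.20; adjusted p 0.0821). None of these passed the threshold, and no other member did (4 of 10 with an unadjusted p under 0.05 in each transfection, where 14.7% and 13.4% of all genes had one; 1.03% of all genes called with depc and 0.157% with poly I:C). The direction held under upper-quartile and median-of-ratios scaling, with larger SE and adjusted p of 0.391 to 0.523 and of 0.476 to 0.632 (limma).

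GC centring made these differences and their SE smaller. NFKB2 was then 0.89 ± 0.12 higher with depc and 0.93 ± 0.12 with poly I:C (SE; adjusted p 0.00242 and 0.00340, limma). RELB was 1.04 ± 0.15 and 1.21 ± 0.15 higher (adjusted p 0.00380 and 0.00344, limma). Of the other members, limma then also called BIRC3 lower with depc, at -0.69 (adjusted p 0.0482), and IL6 lower with poly I:C, at -0.67 (adjusted p 0.0444), among 11.8% and 6.74% of all genes. In the counts of separate replicates, RES libraries lay above DMSO libraries for 7 of the 10 genes with depc and 6 with poly I:C, none the other way, where 25.7% and 28.3% of all genes lay above and 8.47% and 7.04% below. Besides NFKB2 and RELB, CXCL1, CXCL8 and TNFAIP3 were among them in both. CXCL1 was 0.74 higher with depc (adjusted p 0.237, limma) and 0.87 higher with poly I:C (adjusted p 0.208). CXCL8 was 0.67 (adjusted p 0.623, limma) and 1.40 (adjusted p 0.232) higher, and TNFAIP3 0.65 (adjusted p 0.425) and 0.49 (adjusted p 0.571).

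**Figure D4:**
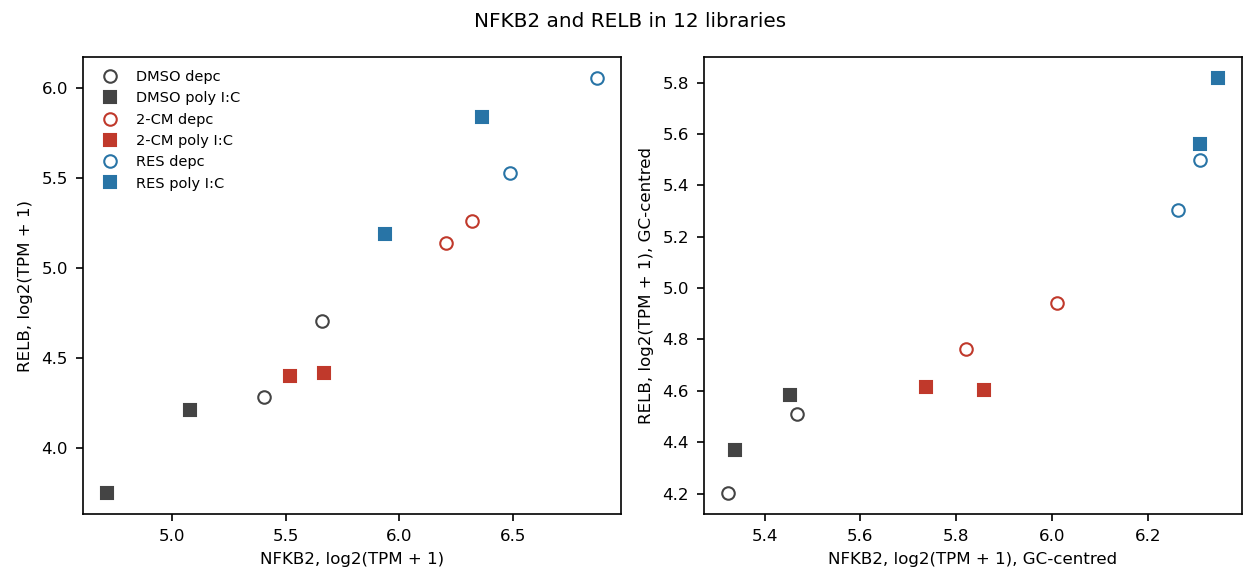
Level of NFKB2 (horizontal) against RELB (vertical) in each library, in log2(TPM + 1), as measured (left) and after GC centring (right); colours mark the compound, circles depc and squares poly I:C. The RES libraries take the upper right in the right panel, the DMSO libraries the lower left and the 2-CM libraries lie between them; in the left panel each poly I:C pair lies lower on the NFKB2 axis than the depc pair of its compound.

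Of the other genes of the NF-kB pathway, a list of 62 symbols held receptors, adaptors, kinases, inhibitors, subunits and targets. It was tested for 49 symbols; the 13 below the filter included the ligands TNF, IL1A and IL1B, at most 0.046, 0.138 and 0.341 TPM in any library, and the chemokine receptors CXCR1, listed at 0, and CXCR2, at most 0.104 TPM. Limma called none with DMSO or RES (8 and 6 had an unadjusted p under 0.05, as did 19.7% and 14% of all genes), 28 with 2-CM (20 higher, 8 lower) and 20 in the average (6 higher, 14 lower), where 4.08%, 0.442%, 49.3% and 31.2% respectively of all genes were called. After GC centring 6 were called with DMSO and 3 with RES, all higher, where 15.8% and 2.96% of all genes were called. In this list too the balance changed with the scaling. With 2-CM it was 12 higher and 16 lower with median-of-ratios scaling and 10 and 6 after GC centring. The counts of all genes with 2-CM, given above, leaned to lower under both. In the average the list's counts were 10 and 12, and 14 and 6. After GC centring 30.6% of all genes were called with 2-CM and 36.8% in the average. For the average with median-of-ratios scaling the share of all genes is not given. SOD2 has more than 1 identifier in the annotation, so these are counts of 50 identifiers.

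Among those called with 2-CM, the largest rises were in IL6ST, the gp130 chain through which IL6 signals, at 3.10 ± 0.96 (SE; adjusted p 0.0333, limma), BIRC2, which encodes cIAP1, at 2.65 ± 0.72 (adjusted p 0.0290), and TNFAIP8 at 2.37 ± 0.63 (adjusted p 0.0283). Their GC content was 36.5%, 38.9% and 41.2%, and after GC centring the values were 0.96, 0.75 and 0.62, of which BIRC2 and TNFAIP8 were called. The largest falls were in IL32, an inflammatory cytokine, at -1.16 ± 0.20 (SE; adjusted p 0.0218, limma), NFKBIE, which encodes IκBε, at -0.88 ± 0.26 (adjusted p 0.0313), and the TNF receptor adaptor TRADD at -0.79 ± 0.29 (adjusted p 0.0481). Their GC content was 58.3%, 61.0% and 63.9%, and after GC centring IL32 (-0.80) and NFKBIE (-0.45) remained called. The canonical subunit RELA, at 79.4 TPM with DMSO and depc, had a poly I:C difference of -0.60 (adjusted p 0.168, limma) with DMSO, -0.46 (adjusted p 0.0985) with 2-CM and -0.33 (adjusted p 0.564) with RES, and its average of -0.46 passed (adjusted p 0.0265). NFKB1, another canonical subunit, was at -0.39 (adjusted p 0.639, limma) with DMSO and -0.0036 with RES and rose by 1.01 with 2-CM (adjusted p 0.0424). After GC centring the average for RELA was -0.03 and the 2-CM value for NFKB1 0.10, and neither was called.

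Against DMSO, limma called 3 pathway genes with RES and depc and 1 with RES and poly I:C, among 1.03% and 0.157% of all genes, and these are named after their values were seen. ICAM1, the endothelial and epithelial adhesion molecule that binds leukocyte integrins, was at 33.9 and 35.8 TPM with DMSO and depc and 96.7 and 112 with RES, a rise of 1.55 ± 0.17 (SE; adjusted p 0.0133, limma). With poly I:C it was at 20.3 and 23.6 against 80.0 and 69.9 TPM, a rise of 1.73 ± 0.17 (adjusted p 0.0243, limma). With depc, IL32 rose by 1.13 ± 0.20 (adjusted p 0.0434, limma) and the complement gene C3 by 1.48 ± 0.20 (adjusted p 0.0269). With poly I:C the differences were 1.16 (adjusted p 0.0716) for IL32 and 0.42 (adjusted p 0.421) for C3. GC centring called 10 of the list with depc (7 higher, 3 lower) and 6 with poly I:C (4 higher, 2 lower), among 11.8% and 6.74% of all genes, and kept the 4 called rises, at 1.25 and 1.45 for ICAM1, 0.82 for IL32 and 1.19 for C3. Median-of-ratios and upper-quartile scaling called none of them: with median-of-ratios scaling ICAM1 was 1.37 and 1.40 higher (adjusted p 0.188 and 0.249, limma), IL32 0.95 (adjusted p 0.487) and C3 1.31 (adjusted p 0.193).

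Across the 12 libraries the members fell into sets by the likeness of their levels, given as Pearson's r on log2(TPM + 1) and without a test, since the libraries share treatments and GC pattern. CXCL2 and NFKBIA had an r of 0.984, IL6 and CXCL2 of 0.971, and IL6 and NFKBIA of 0.970. Among genes with a mean TPM of 5 or more, TNFSF10, which encodes the death ligand TRAIL, was among the 3 most like each of IL6, CXCL2 and NFKBIA, at 0.970, 0.976 and 0.979. NFKB2 and RELB had an r of 0.965 with each other and of -0.42 and -0.44 with IL6. The genes most like NFKB2 were EFNB3 (0.990), EPHA2 (0.987) and ADM2 (0.987), and those most like RELB were CHAC1 (0.986), ADPRHL1 (0.983) and ATF5 (0.982), all with a GC content of 58.4% or more. The gene most like BIRC3 was CBX3, at 0.995.

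Isoform shares varied between libraries more in some genes than in others, and their certainty was not measured. In RELB 1 transcript, ENST00000505236.1, held 94.6% to 97.9% of the gene's TPM in every library, and in BIRC3 ENST00000263464.8 held 92.9% to 99.7%. In NFKBIA the leading transcripts ENST00000557389.1 and ENST00000216797.9 held from 1.85% to 52.4% and from 6.56% to 83.99%, so that its isoform shares varied between libraries far more than its total. The leading transcript of IL6, ENST00000258743.10, was above 0 in 8 of 12 libraries and held 0% to 78.7%. That of CXCL3 held 0% to 100% and that of TNFAIP3 0.143% to 100%.

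The authors also deposited their own fold changes of poly I:C over depc. With DMSO, 2 of the 10 genes in the authors' deposited table had an adjusted p under 0.05, where 1.25% of the table's genes did: IL6, with a log2 fold change of 3.62 (SE 0.64), and CXCL2, with 2.62 (SE 0.59). With 2-CM 9 of 10 did, 7 higher and NFKB2 (-1.60) and RELB (-1.69) lower in the authors' deposited table, where 46.4% of its genes did. CXCL1 was the exception there, at 1.49 (SE 1.31). With RES none of the 10 did in the authors' deposited table, where 0.363% of its genes did; IL6 had 1.86 (SE 0.74) and CXCL8 1.80 (SE 0.76) there.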

How the data were processed

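Per the labels, polyA RNA was made into stranded TruSeq libraries and sequenced as paired reads of 101 bases. Per the submitters' processing notes, HISAT2 2.1.0, StringTie, DESeq2 and hg38 were used; per the file headers, StringTie 2.0.4 ran on the GENCODE 32 annotation. The authors deposited TPM, FPKM and coverage per transcript, with no counts per library, and tables of base mean signal, log2 fold change with its SE, test score, p-value and adjusted p-value per comparison. Here TPM was summed to genes, 17185 genes reaching TPM 1 in 2 or more libraries were kept, and log2(TPM + 1) was fitted with limma 3.58.1 (R 4.3.3) on 6 group means over 12 libraries, with Benjamini-Hochberg adjustment over all genes within a comparison. A gene was called at an adjusted p under 0.05. The model was run on simulated data with independent random spread in each gene. These lacked the GC pattern of the libraries, so they do not bear on calls that follow it. Reads were estimated from coverage for alternatives. All 10 members are named. By rule, other pathway genes are named as the 3 largest called per direction with a mean TPM of 5 or more. RELA and NFKB1, as canonical subunits, and ligands and receptors below the filter are named outside this rule. So are ICAM1, C3, CCL2 and NFKBIZ, and IL32 for RES against DMSO, after their values were seen. Like genes are named as the 3 highest correlations. The members and lists were chosen with earlier results of these data known.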

Additional observations from a re-analysis of the deposited data

How the results depend on the processing

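The total of called members in each comparison moved by at most 1 gene with FPKM, upper-quartile or median-of-ratios scaling, limma voom or CPM of estimated reads, or a pseudocount of 0.1, but with 2-CM median-of-ratios scaling called 6 higher and 2 lower in place of 8 and 1. A TPM minimum of 5 left 8 members tested, without CXCL1 and CXCL3, and called 3 with DMSO, 8 with 2-CM and 8 in the average. Without the filter on low genes the counts were 1 with DMSO, 3 with 2-CM and 5 in the average, and with only the groups compared the DMSO count was 0. Calls with DMSO, with 2-CM and in the average also changed when 1 library was left out. A lone library was then assumed to vary like the others, and the cause of the losses was not tested. The average over DMSO and RES only called 0 members and 0.768% of all genes, and with GC centring 3 and 15.3%. GC centring called 2 with RES, 2 for 2-CM against DMSO with poly I:C, and 3 for RES against DMSO in each transfection. It turned the poly I:C change of CXCL1 (-0.21) and CXCL8 (-0.11) with 2-CM, of NFKB2 with DMSO (0.00027), with RES (0.041) and in the average over DMSO and RES only (0.021), and of RELB with DMSO (0.12), with RES (0.29), in the average (0.056) and in that over DMSO and RES only (0.21). For 2-CM against DMSO with poly I:C, median-of-ratios scaling turned NFKBIA (-0.050), NFKB2 (-0.065) and RELB (-0.31), upper-quartile scaling RELB (-0.23) and GC centring CXCL1 (-0.27). In the difference of responses, 2-CM minus DMSO, GC centring turned CXCL1 (-0.68) and CXCL8 (-0.40), and NFKBIA turned with median-of-ratios (-0.51) and upper-quartile (-0.25) scaling; in RES minus DMSO, GC centring turned CXCL1 (-0.086), CXCL3 (-0.0081) and BIRC3 (-0.021), and NFKB2 turned with median-of-ratios (-0.036) and upper-quartile (-0.00038) scaling. With 1 library left out, values ran from -0.034 to 0.91 for CXCL3 with RES, -0.11 to 0.58 for CXCL8 with DMSO, -0.080 to 0.53 for TNFAIP3 with RES, -0.60 to 0.044 for RELB with RES, and -0.52 to 1.13 with DMSO and -0.23 to 1.60 with RES for BIRC3. They ran from -0.016 to 1.47 for CXCL8 and -0.54 to 1.29 for BIRC3 in RES minus DMSO, and, for RES against DMSO, from -1.54 to 0.28 for BIRC3 with depc and -0.72 to 0.066 for IL6 with poly I:C. The 15 correlations of replicate deviations between groups were of both signs, from -0.796 to 0.761. Replicates differ in GC pattern, so these correlations cannot show whether replicate numbers pair the libraries. A replicate block called 3, 9, 0 and 10 members with DMSO, 2-CM, RES and on average. Apart from the average over DMSO and RES only, the counts of called members in this section stand without the share of all genes. They describe the settings and are no result about the members in particular. The chemokines CXCL1, CXCL3 and CXCL8 rest on few reads, from 0 to 208 a library as estimated. The depc levels of IL6 and CXCL2, from which their poly I:C changes are counted, rest on few reads too. In the depc libraries the estimated reads of IL6 lay within the range of those of CXCL8. Those of CXCL2 began within that range and reached above it.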

Other observations

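Of the pathway genes called higher in the average over compounds, CCL2, a monocyte-attracting chemokine, and NFKBIZ are named here after their values were seen. The mean level of CCL2 was 7.97 TPM with DMSO and depc and 16.7 TPM with poly I:C, 8.54 and 33.6 with 2-CM, and 6.23 and 12.4 with RES. The log2 change averaged 1.25 ± 0.20 (SE; adjusted p 0.00403, limma). After GC centring it was 0.97 with DMSO, 0.76 with 2-CM and 0.83 with RES, and limma called each (adjusted p 0.00121, 0.00492 and 0.00737). NFKBIZ, which encodes the nuclear inhibitor IκBζ and is needed for IL6 transcription in several cell types, averaged 1.05 ± 0.24 (SE; adjusted p 0.0143, limma), with 2.19 under 2-CM (adjusted p 0.0245). It was 0.40 with DMSO (adjusted p 0.708, limma), from 1.28 and 0.871 to 2.93 and 0.877 TPM, and 0.56 with RES (adjusted p 0.611), from 4.07 and 1.74 to 3.46 and 5.83 TPM, so the libraries overlapped under both. After GC centring NFKBIZ averaged 0.65 (adjusted p 0.00144, limma), with 0.42 under DMSO, 1.09 under 2-CM and 0.44 under RES, of which the 2-CM value was called (adjusted p 0.00510).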
